A study of Mus musculus with 6 samples.

Results

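Histone genes were followed in bone marrow cells from young and old mice. The genes were chosen by name alone: every array probe designed to a RefSeq transcript of a gene whose symbol marks it as a histone of the Hist1 to Hist4 clusters or as an H1f, H2af or H3f gene, in the older or the newer nomenclature. Of the 85 mouse genes that meet this rule in the RefSeq gene table, 61 had at least 1 probe (73 probes in all) among the 37163 gene names on the array, and the other 24 were not analysed here. RNA was measured on 6 one-colour Agilent arrays, 3 from C57BL/6 mice aged 3 months (young) and 3 from C57BL/6 mice aged 24 months (old). The labels name no genotype other than this strain and no treatment, and the cells of both groups were labelled and sorted from bone marrow. They are labelled as mesenchymal stem cells, and neither the labels nor the design text give the markers of the sort. Whether the 3 samples of an age are 3 mice is not stated, and a p-value here reflects only how much the samples vary, which may be technical variation.

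Histones are the proteins around which DNA is wound in the nucleosome. H2A, H2B, H3 and H4 form its core and H1 binds the linker DNA between nucleosomes. Most are made from replication-dependent genes, which lie in clusters, have no introns, and are transcribed during S phase, when new DNA is packaged. Their mRNAs end in a conserved stem-loop instead of a poly(A) tail, and that stem-loop is bound by the protein encoded by Slbp. Replacement histones, such as H3.3 and H2A.Z, come from single genes outside the clusters and as a rule give polyadenylated mRNA in and out of S phase. A further set of variants is known from testis and oocytes. By this division the 61 genes comprised 44 replication-dependent, 10 replacement and 7 germ-cell genes. Genes with a Hist1 to Hist4 symbol outside the germ-cell set were counted as replication-dependent by that name alone, and how each is expressed was not checked.

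The promoters of the genes that stand out in the values below are shown first, as 300 bases from 250 before to 50 after the annotated transcript start (RefSeq, build GRCm38.p6, read on the strand of the gene). Capitals mark 3 motifs on either strand: the TATA box, searched as TATAAA, the CAAT box, searched in its form CCAAT, and the octamer, searched as ATTTGCAT. H2bc23 was the only histone gene past the test threshold, H3c11 and H2bc3 were the replication-dependent genes with the most reduced signal in young replicate 1, and H2aj was the replacement gene with the smallest p.
H2bc23, chr13:21810150-21810449, minus strand: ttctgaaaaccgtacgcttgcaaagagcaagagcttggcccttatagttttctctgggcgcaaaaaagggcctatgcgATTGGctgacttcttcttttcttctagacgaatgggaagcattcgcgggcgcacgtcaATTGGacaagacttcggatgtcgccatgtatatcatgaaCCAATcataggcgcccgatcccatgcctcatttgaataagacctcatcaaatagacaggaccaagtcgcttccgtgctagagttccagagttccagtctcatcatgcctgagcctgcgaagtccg
H3c11, chr13:21783348-21783647, minus strand: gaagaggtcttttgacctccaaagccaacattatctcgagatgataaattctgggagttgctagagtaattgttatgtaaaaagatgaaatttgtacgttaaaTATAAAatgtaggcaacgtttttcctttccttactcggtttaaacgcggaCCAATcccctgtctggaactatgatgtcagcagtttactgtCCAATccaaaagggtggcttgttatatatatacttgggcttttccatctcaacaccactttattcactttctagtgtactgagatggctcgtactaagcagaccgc
H2bc3, chr13:23746484-23746783, plus strand: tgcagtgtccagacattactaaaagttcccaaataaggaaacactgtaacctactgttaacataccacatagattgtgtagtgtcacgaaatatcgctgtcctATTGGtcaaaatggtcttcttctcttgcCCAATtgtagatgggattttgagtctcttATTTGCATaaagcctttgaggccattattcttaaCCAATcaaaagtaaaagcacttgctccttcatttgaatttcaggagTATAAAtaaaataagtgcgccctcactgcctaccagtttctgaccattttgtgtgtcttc
H2aj, chr6:136807998-136808297, plus strand: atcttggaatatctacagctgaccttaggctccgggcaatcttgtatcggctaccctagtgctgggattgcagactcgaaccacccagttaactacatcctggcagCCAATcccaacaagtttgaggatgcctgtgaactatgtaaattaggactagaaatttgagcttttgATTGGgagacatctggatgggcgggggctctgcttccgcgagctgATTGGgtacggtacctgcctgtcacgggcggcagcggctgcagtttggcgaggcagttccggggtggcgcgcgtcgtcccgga
Of the 57 tested histone genes, 51 had a promoter in the RefSeq table. TATAAA or its reverse complement TTTATA was present in 22 of the 38 replication-dependent promoters (57.9%), in 1 of 8 replacement promoters and in 13.6% of all 32851 promoters in the table. CCAAT or ATTGG was present in 33 of the 38 (86.8%), in 6 of the 8 and in 37.4% of all promoters. Every replication-dependent H1, H2A, H2B and H3 promoter in the table held it, against 2 of 7 H4 promoters. ATTTGCAT or ATGCAAAT was present in 10 of the 38 (26.3%), 6 of 13 H2A and 4 of 8 H2B promoters, in 1 of the 8 replacement promoters and in 1.74% of all promoters. The motifs were counted separately even where their letters overlap, and a match describes only the letters in this window. The H2bc23 promoter held CCAAT 3 times and neither other motif, whereas that of H2bc3 held all of them.

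The signal of each probe is given as its log2 processed intensity minus the 75th percentile of its own array. That percentile was 376, 393 and 315 intensity units for the young samples, against 318, 250 and 229 for the old ones, and 50.9% to 60% of the probes on an array were well above background. No probe was saturated. Of the 61 histone genes, 57 were tested because their probe exceeded background clearly on 3 or more arrays, and all 57 did so on all 6. The 4 that were not tested were the replication-dependent linker histone gene H1f3, the replacement linker gene H1f0, and the germ-cell genes H1f7 and H2ab1. The arrays gave a mixed picture of the cells. Pdgfra, Pdgfrb, Prrx1, Twist1, Foxc1 and Grem1, which mark mesenchymal stroma, were well above background on none of the arrays, and 9 of the 17 stromal genes in the list were well above background on all 6. Genes of other bone marrow cells were measured: 13 of 13 erythroid, 16 of 16 neutrophil and 10 of 10 general leukocyte genes that had a probe were well above background throughout. The same held for 10 of 15 B cell, 6 of 8 monocyte, 4 of 8 endothelial and 3 of 10 osteoblast genes. The young arrays lay in slide row 1 and the old arrays in slide row 2, so slide row and age cannot be told apart. In RNA from a cell population, fewer cells of a type and less RNA per cell cannot be told apart either.

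Old and young samples differed at 1 of the 57 tested histone genes, or 1.75%, against 8.48% of all 23266 tested genes (limma with Benjamini-Hochberg adjustment over all tested genes, threshold 0.05). That gene was lower in old samples, where 4.02% of all genes were lower, and no histone gene passed as higher, where 4.46% of all genes were higher. At an unadjusted p under 0.05, 14 histone genes were higher and 3 lower, 29.8% of the 57 in all, close to the 29.0% of all tested genes (18.8% higher and 10.2% lower). The ages did not overlap in 18 histone genes, while this held for 37.3% of all genes. In 15 histone genes every old value lay above every young value, and in 3 every old value lay below. These are 26.3% and 5.26% of the 57, beside 25.1% and 12.2% of all genes. Of the 57 log2 fold changes, 45 (78.9%) were positive, beside 62.6% of all tested genes. The median of the 57 was 0.41, compared with a median of 0.08 over all tested genes. The replication-dependent genes had a median of 0.41 (43 genes, range -1.17 to 0.73), the germ-cell genes 0.43 (5 genes) and the replacement genes 0.03 (9 genes, range -0.16 to 0.48).

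**Figure D1:**
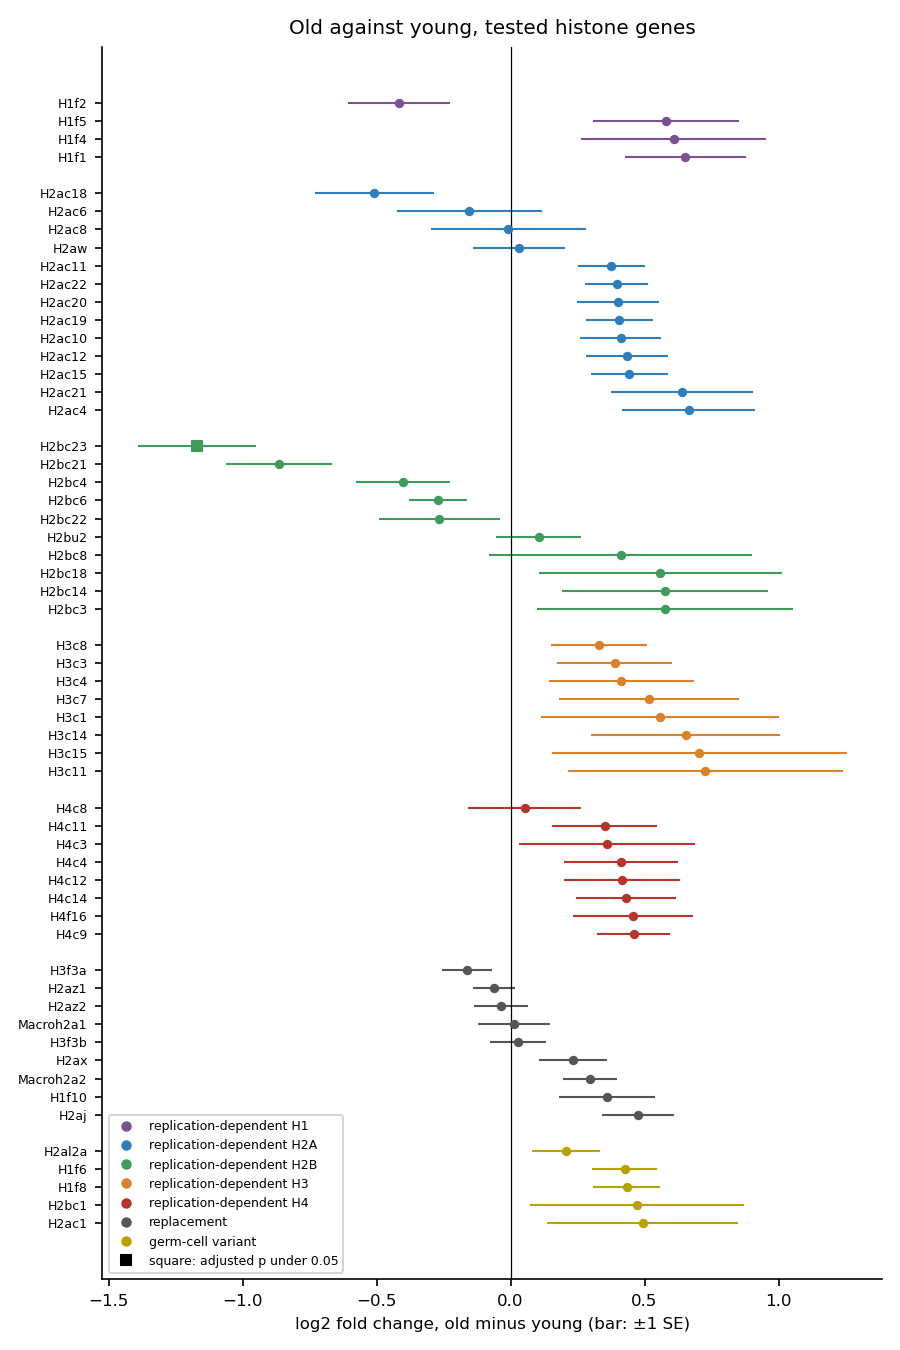
Log2 fold change of old over young samples for the 57 tested histone genes, 1 row per gene, grouped by class. Points are fold changes fitted by limma on 3 young and 3 old arrays and bars are ±1 SE. H2bc23, drawn as a square at -1.17, was the only gene past the adjusted threshold, and the replication-dependent H3 and H4 genes all lay to the right of 0.

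H2bc23 (Hist1h2bq, NM_001097979), a core histone H2B gene of the Hist1 cluster on chromosome 13, was the histone gene that fell. Its normalized log2 signal was -2.30, -1.98 and -2.72 in the young samples and -3.66, -3.64 and -3.21 in the old samples. All old values lay below all young values, and the group means differed by 2.25-fold (log2 fold change -1.17 ± 0.22 (SE), limma adjusted p = 0.0343, n = 3 and 3). The probe was dim, and with normexp background correction the fold change was -0.28 (limma adjusted p = 0.149). The call was also lost in each of the 6 fits that left out 1 array (log2 fold change -1.36 to -0.99, limma adjusted p = 0.0507 to 0.102). H2bc21 (Hist2h2be), an H2B gene of the Hist2 cluster on chromosome 3 that was classed as replication-dependent by its symbol only, was the next in order of p. Its signal was -0.09, -0.25 and 0.39 in the young samples and -0.64, -0.84 and -1.07 in the old samples. These groups did not overlap either, and the gene missed the threshold narrowly (log2 fold change -0.86 ± 0.20 (SE), limma adjusted p = 0.0511). It passed with median scaling, with normexp correction, with a stricter detection filter and with an intensity trend in the fit (limma adjusted p = 0.0494, 0.0204, 0.0345 and 0.0188).

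The replication-dependent genes were uneven within the young group, and this bears on their comparisons below. In 35 of the 43 tested genes the lowest young value was that of young replicate 1, compared with 28.9% of all tested genes. In 23 of the 43, or 53.5%, young replicate 1 lay at least 0.5 log2 units below both other young arrays, compared with 1.84% of all tested genes. None of the 9 replacement genes did so, and 2 of the 5 germ-cell genes did, H2bc1 and H2ac1, which lie in the Hist1 cluster. The same count was 0 for young replicate 2, 3 for young replicate 3 and 3, 0 and 0 for old replicates 1 to 3, each against the other arrays of its group. Among the 100 tested genes with the largest reduction in young replicate 1 were 11 histone genes, 9 of them replication-dependent. The margin of 0.5 and this comparison of arrays were chosen after the values had been seen, so they are a description and carry no test.

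The reduction in young replicate 1 was spread over the histone types and both large clusters. It was met by 4 of 4 H1, 3 of 13 H2A, 4 of 10 H2B, 7 of 8 H3 and 5 of 8 H4 genes, and by 17 of 31 genes in the Hist1 cluster and 5 of 9 in the Hist2 cluster. H3c11 (Hist1h3i), which encodes a canonical H3, showed the largest gap. Its signal was 2.24, 4.12 and 4.07 in the young samples and 4.11, 4.06 and 4.44 in the old samples. Young replicate 1 was 1.84 log2 units below the lower of the other young arrays, while those arrays and the old arrays lay within a narrow band (log2 fold change 0.73 ± 0.51 (SE), limma adjusted p = 0.395). Without young replicate 1 its fold change was 0.11 (limma adjusted p = 0.688). H2bc3 (Hist1h2bb), a core H2B gene, had a signal of 0.76, 2.59 and 2.33 in the young samples and 2.34, 2.31 and 2.75 in the old samples. Here too a single young array was low and the rest of the groups overlapped. The count of reduced genes was 21 to 25 of 43 with median scaling, quantile normalization, cyclic loess, normexp correction and in the authors' deposited log2 values, and 12 of 43 when signals were compared without any scaling.

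**Figure D2:**
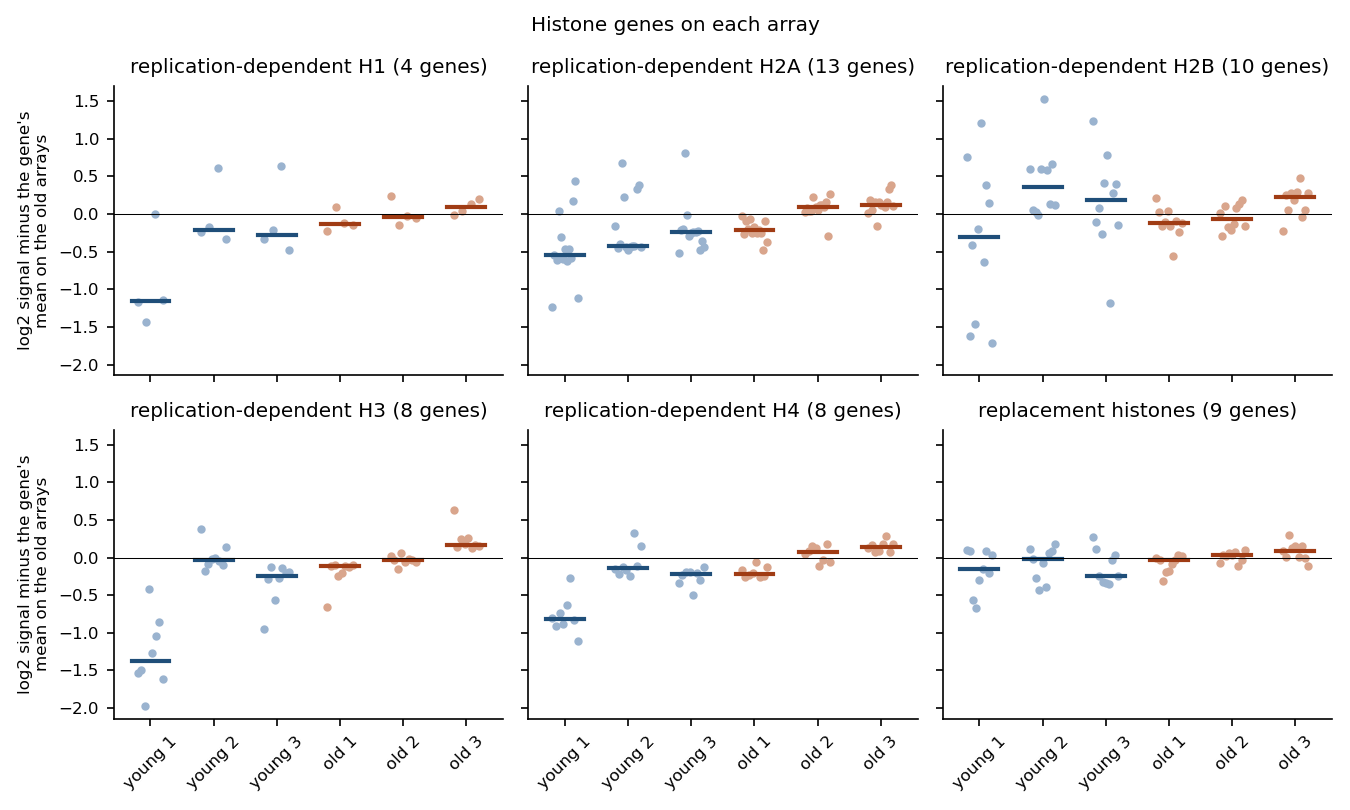
Normalized log2 signal of each tested histone gene on each of the 6 arrays, as the difference from that gene's mean on the old arrays, in panels for the 5 replication-dependent types and the replacement genes. Points are genes and bars are medians over the genes of a panel. Young replicate 1 lies below the other young arrays in the H1, H3 and H4 panels, and the replacement genes show no such gap.

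The gap in young replicate 1 was compared with other gene lists. The median signal of the 43 replication-dependent genes was 3.84, 4.59 and 4.49 in the young group and 4.63, 4.73 and 4.93 in the old group. The 30 genes of DNA replication and S phase had medians of 5.52, 5.44 and 5.58 in the young group and 5.60, 5.37 and 5.55 in the old group. The 20 mitosis genes had medians of 4.30, 4.42 and 4.46, followed by 4.43, 4.37 and 4.47. Both proliferation lists were thus level across the arrays, and 1 of 30 and 0 of 20 of their genes were at least 0.5 log2 units low in young replicate 1. The 16 neutrophil genes had medians of 4.26, 5.02 and 5.53 in the young group and 3.76, 3.40 and 3.40 in the old group. Of the 16, 7 (43.8%) were low by that margin in young replicate 1. The neutrophil medians rose from young replicate 1 to 3, whereas the histone medians of young replicates 2 and 3 were nearly level. Other lists differed: 2 of 10 leukocyte, 2 of 11 stromal, 1 of 8 monocyte, 0 of 14 B cell, 0 of 8 osteoblast and 0 of 4 endothelial genes were low there. The B cell medians of the young group, 0.72, -0.02 and 0.32, were highest in replicate 1. The erythroid median ranged from 4.64 to 4.94 over the 6 arrays, and none of 13 erythroid genes was low. Among the young samples both the neutrophil and the histone medians were lowest in replicate 1, and between the ages they differed in opposite directions. Each young median of the neutrophil list lay above each old one, and the part of cell composition in the histone values was not tested.

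**Figure D3:**
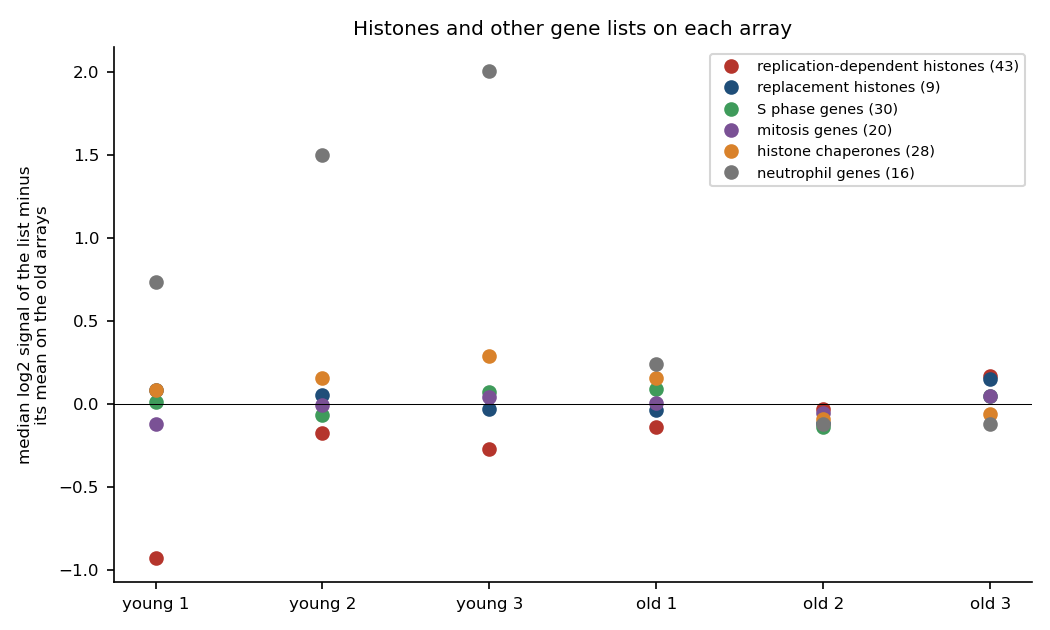
Median normalized log2 signal of 6 gene lists on each array, as the difference from the mean of the list's medians on the 3 old arrays. Replication-dependent histones are lowest in young replicate 1, S phase and mitosis genes stay near 0 on all arrays, and neutrophil genes lie highest in young replicate 3.

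Replacement and replication-dependent histones were compared within each array, which cancels any constant factor between arrays. An array effect that differs between mRNAs with and without a poly(A) tail would not cancel, nor would one that depends on signal. The class medians lay at different signals, and the part of such effects was not tested. The median of the replacement genes was 6.17, 6.14 and 6.05 in the young group and 6.05, 5.97 and 6.24 in the old group. The replication-dependent median minus the replacement median was -2.33, -1.55 and -1.56 in young samples and -1.42, -1.23 and -1.30 in old samples. All 3 old arrays therefore lay above all 3 young arrays, and the means were -1.81 ± 0.45 (SD, n = 3) and -1.32 ± 0.09 (SD, n = 3), a difference of 0.49. Without young replicate 1 that difference was 0.23, and without any other single array it was no more than 0.63. The replication-dependent median fold change fell from 0.41 to 0.16 without young replicate 1, beside 0.10 over all tested genes, while the replacement median was 0.03 with it and 0.04 without it.

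The linker histone genes H1f1, H1f4 and H1f5 had higher values in all old samples than in all young samples, and none passed the threshold. Such a separation was seen in 25.1% of all tested genes and in 34.7% of those with a mean signal of 2 to 9. All 4 tested H1 genes were among those low by at least 0.5 in young replicate 1. H1f1 (Hist1h1a) had the smallest p of the class. Its signal was 3.64, 4.44 and 4.30 in the young samples and 4.63, 4.73 and 4.98 in the old samples. The groups did not overlap (log2 fold change 0.65 ± 0.23 (SE), limma adjusted p = 0.125), and without young replicate 1 the fold change was 0.41. H1f4 (Hist1h1e), one of the main linker histones of somatic cells, had the highest signal of the class. It measured 5.58, 6.85 and 6.81 in the young samples and 7.12, 6.88 and 7.06 in the old samples. The old values exceeded the young ones, by a small margin once young replicate 1 is set aside (log2 fold change 0.61 ± 0.35 (SE), limma adjusted p = 0.297, and 0.19 without that array). H1f2 (Hist1h1c), the fourth tested linker gene, had a fold change of -0.42 (limma adjusted p = 0.211).

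Of 13 H2A genes 10 had positive fold changes under the 75th-percentile, normexp and quantile settings, and 9 under median scaling, cyclic loess and in the authors' deposited values. Under the 75th-percentile setting that was 76.9% of the 13, beside 62.6% of all tested genes. The probes of 7 of them, H2ac10, H2ac11, H2ac12, H2ac15, H2ac19, H2ac20 and H2ac22, had mean signals above 9 and fold changes between 0.38 and 0.44. H2ac12 (Hist1h2ah), the brightest of the class, had a signal of 10.27, 10.45 and 10.65 in the young samples and 10.64, 11.02 and 11.01 in the old samples. Its groups overlapped narrowly, with old replicate 1 just under young replicate 3 (log2 fold change 0.44 ± 0.15 (SE), limma adjusted p = 0.126). H2ac22 (Hist1h2an), with the smallest p of the class, had a signal of 9.75, 9.74 and 9.96 in the young samples and 10.04, 10.27 and 10.34 in the old samples. Its groups did not overlap (log2 fold change 0.40 ± 0.12 (SE), limma adjusted p = 0.0911). Of all tested genes with a mean signal above 9, 84.2% had every old value above every young value. The 7 probes moved together, and the coding sequences of H2A copies are so alike that a probe may read several of them, which could not be checked because the probe sequences were not used here.

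The size of the shift at these bright probes depended on the kind of scaling. Of the 240 tested genes with a mean signal above 9, 238 had positive fold changes, with a median of 0.29. In 84.2% of these genes every old value lay above every young value. Together with H4c12 the bright H2A probes gave 8 replication-dependent genes in this range, 4 of them separated in that way, with a median of 0.41. That median was 0.36 with median scaling and 0.33 with normexp correction, and 0.09 with quantile normalization, 0.19 with cyclic loess and 0.11 in the authors' deposited values, and all 8 values were positive in each. Before any scaling their median log2 intensity was 18.32, 18.51 and 18.37 in the young group and 18.45, 18.37 and 18.31 in the old group, with no gap between the ages. The 21 replication-dependent genes with a mean signal from 2 to 9 had a median of 0.52, which was 0.40 to 0.42 under the last 3 of these settings and 0.16 without young replicate 1. In that range 17 of the 21 were low by at least 0.5 in young replicate 1, against 0.623% of all tested genes. The 14 dimmest genes, below 2, had a median of -0.08, with 6 positive and 8 negative values. The limits of 2 and 9 were chosen after the values had been seen.

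**Figure D4:**
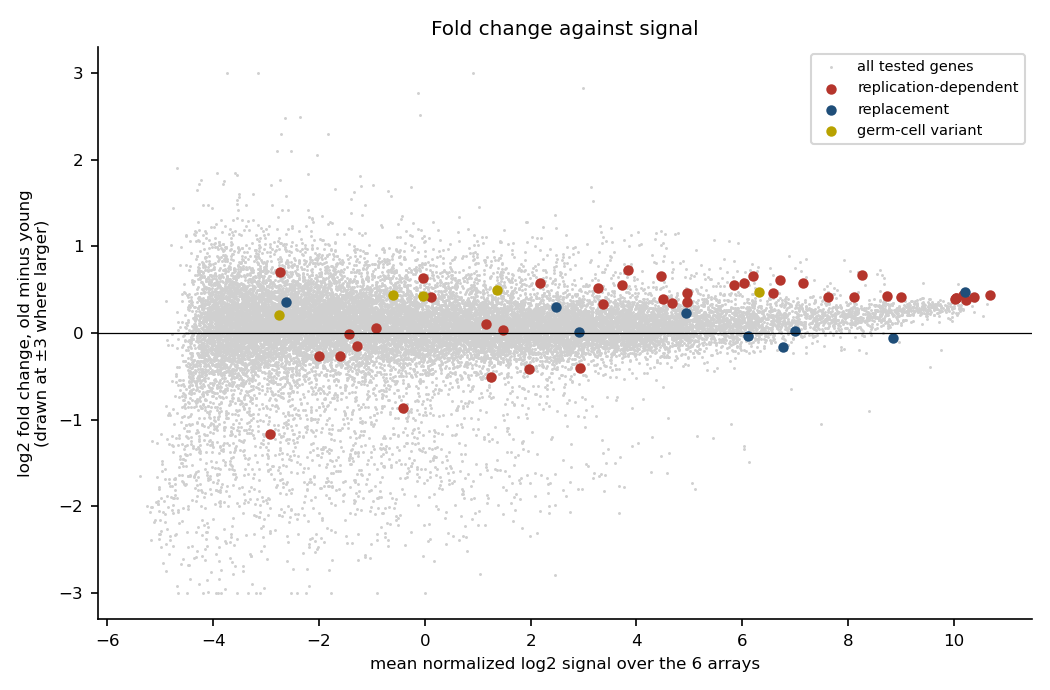
Log2 fold change of old over young samples against mean normalized log2 signal over the 6 arrays for all 23266 tested genes (grey) and the histone genes (coloured by kind). Values beyond ±3 are drawn at ±3. At signals above 9 nearly all genes lie above 0, and the bright H2A genes lie at the upper edge of that cloud.

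Other H2A genes were spread more widely. H2ac4 (Hist1h2ab) and H2ac21 (Hist2h2ab) had the largest positive values, 0.66 and 0.64, and H2ac18 (Hist2h2aa1) the lowest, -0.51 (limma adjusted p = 0.142, 0.175 and 0.190). H2aw, H2ac8 and H2ac6 were near 0 or slightly below it, from -0.15 to 0.03.

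H2B was the type with the most divided values, 5 positive and 5 negative, and a median of -0.08. H2bc23 and H2bc21, described above, were at the low end, followed by H2bc4 (-0.40), H2bc6 (-0.27) and H2bc22 (-0.27). H2bc14 (Hist1h2bm) had the highest signal of the class. It gave 5.97, 7.42 and 7.17 in the young samples and 7.32, 7.26 and 7.71 in the old samples. Young replicate 1 was far below the other arrays, and the groups otherwise overlapped (log2 fold change 0.58 ± 0.38 (SE), limma adjusted p = 0.369, and 0.14 without that array). Genes of H2A and H2B often stand head to head and share the sequence between them. In 3 such pairs with both genes tested the starts lay 180 to 281 bases apart. The fold changes were 0.40 and -0.27 for H2ac22 and H2bc22, -0.01 and 0.41 for H2ac8 and H2bc8, and 0.49 and 0.47 for the germ-cell pair H2ac1 and H2bc1. None of these genes passed the threshold (limma adjusted p = 0.0911 to 0.989). The members of the first pair differed in sign, and H2ac8 was too close to 0 for its sign to be read (SE 0.29). Without young replicate 1 the germ-cell pair had 0.07 and 0.01. These 3 pairs therefore do not show whether the members of a pair change together.

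All 8 replication-dependent H3 genes had positive fold changes, from 0.33 to 0.73, with a median of 0.54. Beside this count, and that of the H4 genes below, 62.6% of all tested genes had positive fold changes. None passed the threshold or reached an unadjusted p under 0.05. H3c14 (Hist2h3c1) had the smallest p. Its signal was 5.04, 6.36 and 6.24 in the young samples and 6.42, 6.49 and 6.68 in the old samples. The groups did not overlap, although young replicates 2 and 3 came close to the old values (log2 fold change 0.65 ± 0.35 (SE), limma adjusted p = 0.275, and 0.23 without young replicate 1). H3c4 (Hist1h3d), with the highest signal of the class, gave 7.27, 8.26 and 8.17 in the young samples and 8.20, 8.29 and 8.44 in the old samples. Those groups overlapped (log2 fold change 0.41 ± 0.27 (SE), limma adjusted p = 0.362, and 0.10 without young replicate 1). The median of the type was 0.15 without young replicate 1.

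The 8 H4 genes had positive values from 0.05 to 0.46 and a median of 0.41, and the lowest, H4c8, turned to -0.03 with cyclic loess and -0.05 in the authors' deposited values. Without young replicate 1, 6 of the 8 were positive and the median was 0.19. H4c9 (Hist1h4i) had the smallest p of the class. Its signal was 4.54, 4.93 and 4.67 in the young samples and 5.11, 5.07 and 5.35 in the old samples. No old value reached down to a young one (log2 fold change 0.46 ± 0.14 (SE), limma adjusted p = 0.0905, and 0.37 without young replicate 1). H4c12 (Hist1h4k), the brightest, gave 8.33, 9.04 and 9.02 in the young samples and 9.01, 9.34 and 9.29 in the old samples. Old replicate 1 fell within the young values (log2 fold change 0.42 ± 0.22 (SE), limma adjusted p = 0.263). By cluster, the median was 0.41 in Hist1 (31 genes), 0.43 in Hist2 (9 genes) and 0.07 for the 2 genes of Hist3, and the single Hist4 gene, H4f16, had 0.46.

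No replacement histone passed the threshold. Their median fold change of 0.03 turned to between -0.07 and -0.02 with quantile normalization, cyclic loess, normexp correction, median scaling and in the authors' deposited values. H3f3a and H3f3b encode the same protein, H3.3, which is deposited outside S phase at transcribed genes and elsewhere. H3f3a gave 6.79, 6.79 and 6.96 in the young samples and 6.67, 6.60 and 6.77 in the old samples. Every old value was below every young value, by a small amount (log2 fold change -0.16 ± 0.09 (SE), limma adjusted p = 0.298). H3f3b gave 6.79, 7.09 and 7.04 in the young samples and 7.04, 6.97 and 6.99 in the old samples. Its values interleaved (log2 fold change 0.03 ± 0.10 (SE), limma adjusted p = 0.883), and the sign was negative in 7 of the alternative settings.

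H2az1 and H2az2 encode the 2 forms of H2A.Z, a variant placed around transcription start sites. H2az1 gave 8.90, 8.80 and 8.93 in the young samples and 8.78, 8.84 and 8.82 in the old samples. H2az2 gave 6.17, 6.14 and 6.05 in the young samples and 6.05, 5.97 and 6.24 in the old samples. Both genes overlapped between the ages (log2 fold change -0.06 ± 0.08 (SE), limma adjusted p = 0.648 for H2az1 and log2 fold change -0.04 ± 0.10 (SE), limma adjusted p = 0.846 for H2az2). H2ax encodes the variant that is phosphorylated at DNA breaks. It gave 4.75, 4.98 and 4.71 in the young samples and 4.86, 5.07 and 5.20 in the old samples. Young replicate 2 exceeded old replicate 1, so these groups overlapped (log2 fold change 0.23 ± 0.13 (SE), limma adjusted p = 0.273).

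MacroH2A, which carries a large extra domain and is known from the inactive X chromosome, comes from Macroh2a1 and Macroh2a2. Macroh2a1 gave 2.96, 3.11 and 2.68 in the young samples and 2.95, 3.03 and 2.82 in the old samples. The groups overlapped (log2 fold change 0.01 ± 0.13 (SE), limma adjusted p = 0.96), with the other sign in 8 of the alternative settings. A further probe for another of its transcripts, dimmer and well above background on 5 of 6 arrays, had a fold change of -1.24 (limma adjusted p = 0.170 in the fit of every probe). Macroh2a2 gave 2.47, 2.23 and 2.28 in the young samples and 2.53, 2.70 and 2.63 in the old samples. These groups did not overlap (log2 fold change 0.30 ± 0.10 (SE), limma adjusted p = 0.12).

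H2aj, a little-studied H2A variant known in human cells to build up in senescent fibroblasts, had the highest fold change of the replacement genes. Its signal was 9.78, 10.003 and 10.11 in the young samples and 10.24, 10.50 and 10.57 in the old samples. All old values exceeded all young values (log2 fold change 0.48 ± 0.13 (SE), limma adjusted p = 0.0811), and the fold change was 0.13 to 0.26 with quantile normalization, cyclic loess or in the authors' deposited values. Its second probe, which was dimmer, had 0.12 (limma adjusted p = 0.536 in the fit of every probe). The brighter probe lay in the range above 9, where 238 of 240 tested genes had positive fold changes. In 84.2% of those 240 every old value lay above every young value, so this separation was common at such signals. Before any scaling it gave 18.33, 18.62 and 18.41 in the young group and 18.56, 18.47 and 18.41 in the old group. Its scaled values were close to those of H2ac15 (9.78, 9.95 and 10.10, then 10.14, 10.48 and 10.55). Whether it reads replication-dependent H2A copies could not be checked. H1f10, a linker histone variant, gave -3.01, -2.72 and -2.69 in the young samples and -2.76, -2.43 and -2.15 in the old samples. The groups overlapped (log2 fold change 0.36 ± 0.18 (SE), limma adjusted p = 0.242).

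**Figure D5:**
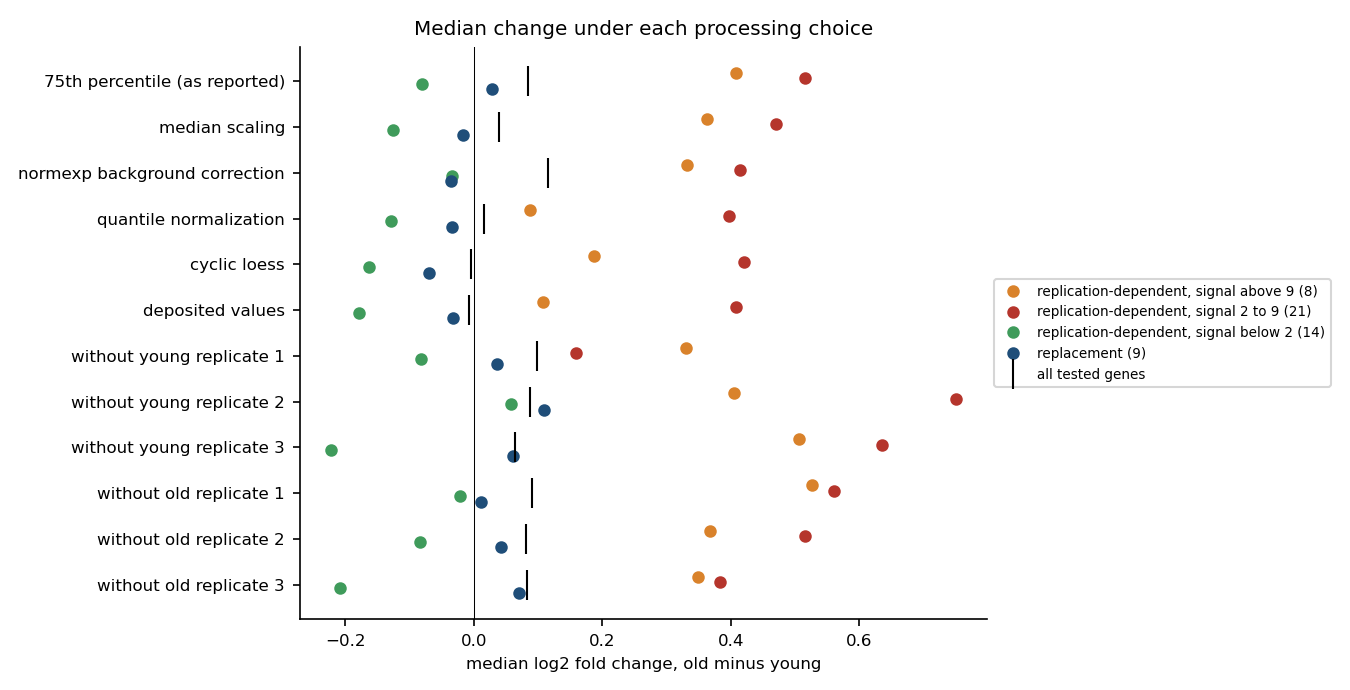
Median log2 fold change of old over young samples for 3 groups of replication-dependent genes by mean signal, for the replacement genes and, as a vertical mark, for all tested genes, under 12 settings on separate rows. The bright group is lowest under cyclic loess, quantile normalization and the values deposited by the authors, the middle group falls to 0.16 without young replicate 1, and the replacement genes lie between -0.07 and 0.11.

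The germ-cell genes had positive fold changes in all 5 tested members, 0.21 to 0.49, beside 62.6% of all tested genes with positive values. Without young replicate 1 all 5 stayed positive, with a median of 0.29. In that fit H2bc1 fell from 0.47 to 0.01 and H2ac1 from 0.49 to 0.07. Whether the probes of these 2 genes read other histone copies could not be checked. H1f6, the testis linker histone, and H1f8, the oocyte linker histone, had higher values in all old than in all young samples (0.43 and 0.43, limma adjusted p = 0.0822 and 0.0839), and both passed with normexp background correction. In a fit of every probe on its own, 8.14% of 31286 probes passed, and none of the probes of the 10 histone genes with more than 1 probe did. The other probes of H2ac15, H4c12, H4c14 and H4c9 had fold changes of 0.33 to 0.55, the same sign as the brighter probe. The other probes of H2az1, H2az2 and H3f3a ranged from -0.29 to -0.10, and those of H3f3b were -0.19 and 0.02.

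Genes that make, process or handle histone transcripts and proteins did not pass the threshold, which 8.48% of all tested genes passed. Of 18 histone mRNA processing genes none was called higher or lower (limma with Benjamini-Hochberg adjustment), 3 (16.7%) had an unadjusted p under 0.05, compared with 29.0% of all tested genes, and their median fold change was 0.06. Slbp, whose product binds the histone stem-loop, had a signal of 2.89, 3.01 and 3.33 in young samples and 2.86, 2.63 and 2.76 in old samples. Every young value lay above every old value (log2 fold change -0.32, limma adjusted p = 0.187). Npat, a coactivator of histone gene transcription in S phase, was well above background on 3 arrays only and had a fold change of 0.08, and Casp8ap2, a component needed for histone gene expression, had 0.11 (limma adjusted p = 0.911 and 0.414). Of 28 tested chaperone and deposition genes none was called and 9 (32.1%) had an unadjusted p under 0.05, near the share of all tested genes, with a median of 0.01. Asf1b and Chaf1a, which serve deposition behind the replication fork, had -0.07 and -0.06 (limma adjusted p = 0.638 and 0.737), with the value of Chaf1a in young replicate 3 left out as an outlier spot. Hira and Daxx, which deposit H3.3, had -0.02 and 0.14 (limma adjusted p = 0.925 and 0.321). Atrx, the partner of Daxx, had a signal of 0.33, 0.37 and 0.17 in young samples and 0.76, 0.53 and 1.01 in old samples. The groups did not overlap, and the difference missed the threshold (log2 fold change 0.48, limma adjusted p = 0.0905).

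Markers of DNA synthesis and division were also not called. None of 30 S phase genes passed (1 at an unadjusted p under 0.05, median -0.00), nor did any of 20 mitosis genes (2 at an unadjusted p under 0.05, median 0.01). Of all tested genes 8.48% passed, so few calls would be looked for in lists this short. At an unadjusted p under 0.05 the shares were 3.33% and 10%, beside 29.0% of all tested genes. Pcna, the sliding clamp of DNA polymerase, had -0.23, Mki67, a proliferation marker, 0.13, and Cenpa, the H3 variant of centromeres that is named outside the histone symbols used here, -0.19 (limma adjusted p = 0.158, 0.491 and 0.276). Genes of other cells did differ between the same samples: 5 of 16 neutrophil, 8 of 14 B cell, 6 of 10 general leukocyte and 6 of 8 monocyte genes were called lower in old samples and none higher, and no erythroid gene was called in either direction, with 1 of 13 at an unadjusted p under 0.05. Of the other lists, 1 of 11 tested stromal genes was called higher and 2 lower, 1 of 8 osteoblast genes higher and 4 lower, and 1 of 4 endothelial genes higher. Beside these counts, 4.02% of all tested genes were called lower and 4.46% higher. The median signal of the leukocyte list was 3.06 to 3.75 in the young samples and 1.91 to 2.42 in the old samples. Their part in the histone values was not tested.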

How the data were processed

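RNA of 6 sorted bone marrow samples was hybridised to 1-colour Agilent arrays. The scanner files hold spot intensity values as deposited by the authors, background-subtracted within each array and not scaled between arrays per the file headers (Feature Extraction 10.7.3.1, where the submitters' processing notes name 10.5.1.1). A log2 table deposited by the authors, with no scaling method named in the labels or headers, had column medians of 4.91, 4.92, 4.95, 4.94, 4.92 and 4.87. It was used as an alternative, and each column correlated with its array across probes at r = 0.9986 to 0.9995. Groups and replicate numbers come from the titles in the labels.

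Control spots and outlier spots were left out, log2 intensities were reduced by the 75th percentile of each array, and spots of a probe were averaged. Symbols came from a RefSeq gene table (GRCm38.p6) by accession, which named 26413 of 55681 probes (47.4%) and 97.9% of those with an NM accession. The probe design was annotated on mm9, so the gene table's coordinates were not used for probes. A gene was represented by its brightest probe and tested when it was detected (well above background) on 3 or more arrays. Ages were compared over all 23266 tested genes in limma 3.58.1 under R 4.3.3 (eBayes after lmFit, no covariates, Benjamini-Hochberg adjustment, threshold 0.05). Tables were handled in Python 3.11.15 with pandas 2.3.3. Alternatives were other scalings and background correction (normexp, offset 50), other filters and probe rules, an intensity trend, a replicate block and leaving out each array. The files hold no mean foreground signal, so normexp used the median foreground and background signals. The number of arrays limits the precision.

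The histone genes and the other lists were chosen with earlier results of these data known. Values on every array are given for histone genes past the threshold, for each tested replacement histone and, per replication-dependent type, for the genes with the smallest p and the highest mean signal; a few genes of the other lists were named whatever their result. H2bc21, H3c11 and H2bc3 were added after their values were seen. The fit was tested on simulated data for old against young: over 5 draws of 23246 genes, 200 of them altered, it recovered 57% of those altered by 1 log2 unit and 88.6% of those altered by 2.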

Additional observations from a re-analysis of the deposited data

How the results depend on the processing

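The count of all tested genes past the limma threshold moved from 1972 to 3360 with normexp background correction, 3567 with an intensity trend and 0 without a detection filter, and was 0 to 1265 when 1 array was left out (73 without young replicate 2, 1 without old replicate 2, 0 without old replicate 3). Histone genes called lower in old samples numbered 2 with median scaling, with detection required on all 6 arrays and with an intensity trend, and 0 without a filter and in each fit without 1 array. With normexp the 1 gene called lower was H2bc21 in place of H2bc23. Histone genes called higher numbered 2 with normexp (H1f6 and H1f8) and 7 with an intensity trend, 5 of them bright H2A genes beside H2aj and H4c9, and 0 to 0 without 1 array. Called genes of histone mRNA processing numbered 2 with normexp and with the trend and 1 with detection on all arrays or the mean of all probes. Called chaperone genes numbered 2 with normexp or detection on all arrays, 1 with the mean of all probes and 6 with the trend, and called mitosis genes 1 with normexp and 2 with the trend. The cause of these moves was not tested. With the replicate number as a block 0 genes passed in all and 0 histone genes. Arrays that share a number did not deviate together (r across genes = -0.03, 0.02 and -0.01). These values gave no sign that the numbers pair the arrays, and with 3 arrays per age they cannot exclude it. The block changed the calls of all genes and of H2bc23 and no other call among the results given. The replication-dependent median was positive in every setting (0.16 to 0.53 without 1 array, 0.20 to 0.41 otherwise), as was its difference from the replacement median (0.23 to 0.63 without 1 array, 0.36 to 0.59 otherwise). With 3 arrays per age, changes of 1 log2 unit were recovered only in part in simulated data, and nearly identical histone copies cannot be told apart here.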
